A study of Rattus norvegicus with 18 samples.

Results

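The genes described here encode guidance cues and their receptors: ephrins and Eph receptors, semaphorins with plexins and neuropilins, Slits with Robo receptors, and netrin with Unc5 receptors. They were chosen by symbol from the platform annotation, which gave 61 genes of the 16988 on the array and 1429 of its 223110 probe sets with a single gene symbol. The set holds 9 EphA and 4 EphB receptors, 5 ephrin-A and 3 ephrin-B genes, 20 semaphorins, 7 plexins, 2 neuropilins, 3 Slits, 4 Robo genes, 1 netrin and 3 Unc5 genes. Expression was measured in WB-F344, a single established line of rat liver epithelial cells with stem-like properties, which were confluent at passages 14 to 16. The cells received 100 nM PCB126 or the vehicle alone, 0.1% DMSO, for 6, 24 or 72 h, with 3 arrays for each of the 6 combinations and 18 arrays in all. PCB126 is a coplanar polychlorinated biphenyl that binds the aryl hydrocarbon receptor (AhR). The submitters set out to compare PCB126 with its control at each time.

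Guidance molecules were first described in growing axons and blood vessels, where they attract or repel cells. Ephrins are bound to the membrane and signal to Eph receptor tyrosine kinases on neighbouring cells, and the ligand-bearing cell can signal in turn. Semaphorins bind plexins, the secreted ones mostly together with neuropilins, while Slits bind Robo receptors and netrin binds Unc5 receptors and Dcc. In epithelia, liver included, these systems act on cell contact, repulsion, migration and the sorting of cell layers.

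Values are log2 expression, where a difference of 1 means a change of the RNA signal by a factor of 2. A gene's value on an array is the median of its probe sets, of which the guidance genes had 4 to 54 (median 21). Mean values ran between 3.00 (Sema3a) and 10.21 (Sema3f), and 6 of the 61 lay below 4.03, the median level of all probe sets. Differences were tested with limma over all 16988 genes, and a gene was called at a Benjamini-Hochberg adjusted p under 0.05. The AhR target Cyp1a1 was 7.48-, 46.7- and 74.4-fold higher in PCB126 than in DMSO at 6, 24 and 72 h. The array medians over genes lay between 6.19 and 6.54, and replicates 2 and 1 of PCB126 at 72 h had the widest relative log expression (interquartile ranges 0.475 and 0.461, against 0.275 to 0.368 on the other arrays). Of the markers of the labelled cell type, Krt8 (8.09) and Krt19 (6.09) lay above the median probe set level and Epcam (2.25) below it, and the mesenchymal marker Vim stood at 12.59. That level includes probe sets without a gene symbol and does not by itself mark a gene as expressed. All 5 endothelial markers also lay above it. Of 9 epithelial markers 1 was called lower at 6 h, 3 at 24 h and, beside 1 higher, 3 at 72 h. For comparison with this and the following marker counts, 0.494%, 4.84% and 7.44% of all genes were called at 6, 24 and 72 h. Of 7 mesenchymal markers 1 was higher at 24 h, and 1 was higher and 1 lower at 72 h, when the list had a median difference of -0.30. Of 7 hepatocyte markers 3 lay below the median probe set level, Alb (3.47) among them, and Cyp2e1 (9.77) and Hnf4a (5.20) above it. Of 6 leukocyte markers 2 lay below it, Ptprc (3.03) among them, and Cd14 (10.01) and Cd68 (4.63) above it. No neuron or glia marker was called in any comparison, while of 5 endothelial markers 1 was lower at 24 h and 1 at 72 h, with a list mean at 72 h of 5.15 in PCB126 and 5.50 in DMSO, and of 6 leukocyte and 7 hepatocyte markers 1 each was lower at 24 and at 72 h. The part of these markers in the results was not tested. As in any bulk sample, fewer cells expressing a gene and less RNA per cell cannot be told apart.

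PCB126 changed a minority of the guidance genes, and more of them fell than rose. At 6 h 2 of 61 were called, 1 higher and 1 lower, which is 3.28% against 0.494% of all genes. At 24 h 8 were called, 2 higher and 6 lower, or 13.1% against 4.84% of all genes. At 72 h 11 were called, 4 higher and 7 lower, or 18% against 7.44% of all genes. The guidance genes had a median of 21 probe sets and all genes 10. The part of this in these and the following shares of called genes was not tested. By direction, the share of all genes called higher was 0.253%, 1.7% and 3.3% at 6, 24 and 72 h, and the share called lower was 0.241%, 3.14% and 4.14%. Over the 3 times 12 genes were called at least once and 49 never. The shares of all genes called at least once, or at only 1 or 2 times, were not counted. Epha8 (higher) and Ephb3 (lower) were called at all 3 times, as were 0.43% of all genes. Sema5a, Sema6d, Epha4 and Plxnd1 (lower) and Sema3d (higher) were called at 24 and 72 h, and 5 genes were called at 1 time.

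The median difference of the 61 genes was -0.11 at 6 h, -0.10 at 24 h and -0.08 at 72 h, beside -0.01, -0.02 and 0.00 for all genes. At each time the PCB126 and DMSO arrays of 21 guidance genes did not overlap. Of these 19, 15 and 15 were lower in PCB126, while over all genes 16.9%, 21.8% and 20.2% did not overlap in either direction. Of all genes 7.05%, 9.11% and 9.52% were higher without overlap, and 9.87%, 12.7% and 10.7% lower. The same side was kept at all 3 times by 10 of the 61 genes, against 3.89% of all genes. These 10 were Epha8, higher, and Epha4, Ephb2, Ephb3, Efnb1, Plxna2, Plxnd1, Sema5a, Sema6c and Sema6d, lower. Without replicate 1 of PCB126 at 24 h 5 genes were called at 24 h, and without replicate 1 or replicate 2 of DMSO at 72 h 6 were called at 72 h. The counts over all genes were then 495 at 24 h, against 823, and 885 and 956 at 72 h, against 1264. Without any 1 of the 6 arrays at 6 h, Epha8 was the 1 guidance gene called there, while 32 to 44 of all genes were called, against 84.

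**Figure D1:**
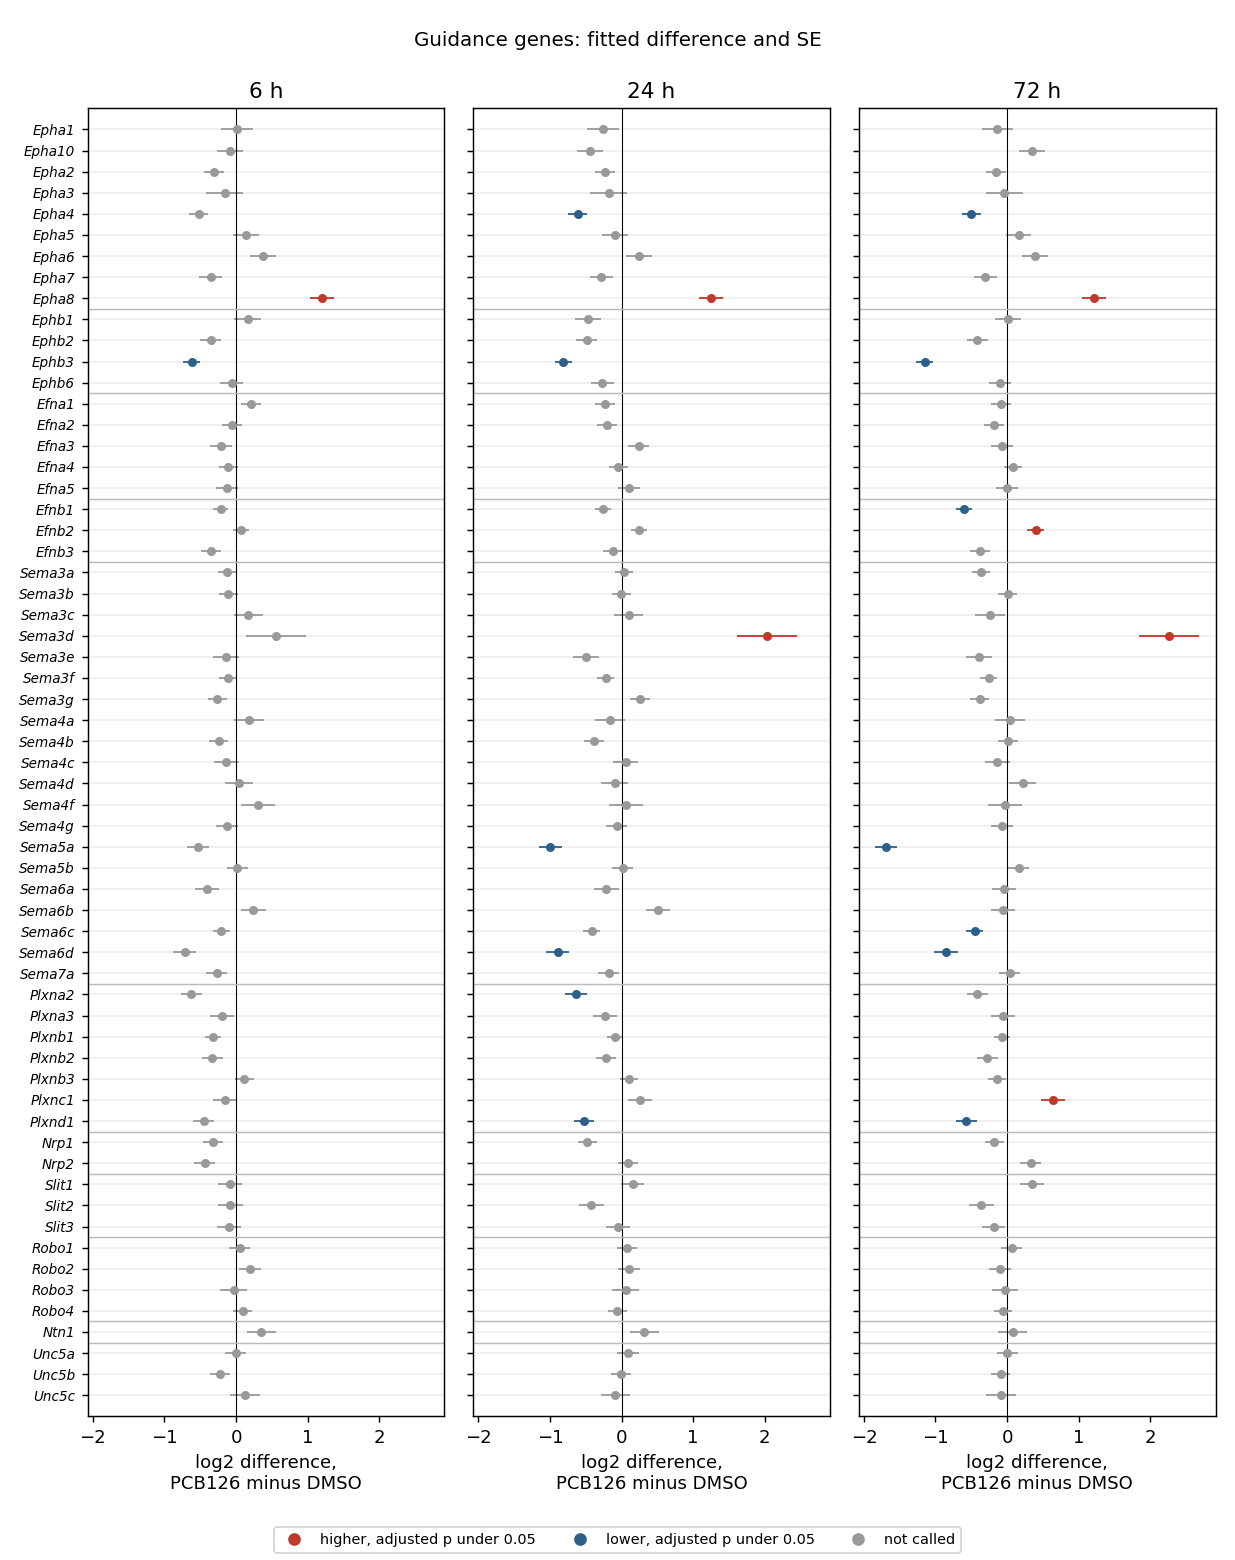
Fitted log2 difference, PCB126 minus DMSO, of each of the 61 guidance genes at 6, 24 and 72 h, grouped by family. Points are differences and bars are standard errors of the limma model (3 arrays per group). Red marks genes called higher, blue genes called lower and grey genes not called; Epha8 stays near 1.2 in every panel while Sema5a moves to -1.69 at 72 h.

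Among the Eph receptors, 1 EphA gene rose and 1 EphB gene fell at every time. Epha8, a receptor tyrosine kinase that binds ephrin-A ligands, had 7.03, 6.74 and 6.45 in PCB126 at 6 h, against 5.62, 5.35 and 5.67 in DMSO. At 24 h it had 6.73, 6.83 and 6.61 in PCB126 and 5.57, 5.51 and 5.34 in DMSO, and at 72 h 6.53, 6.39 and 6.99 in PCB126 and 5.55, 5.26 and 5.46 in DMSO. Every PCB126 array was above every DMSO array, and the 9 DMSO arrays stayed within a narrow band. The log2 differences were 1.20, 1.25 and 1.22 (SE 0.170 each), or 2.29-, 2.37- and 2.32-fold, with limma adjusted p of 0.00237, 2.92e-04 and 1.92e-04. Of its 17 probe sets, 16, 17 and 16 were higher in PCB126 at the 3 times, and at 72 h they ranged between -1.64 and 2.57. With the compared groups fitted alone, the adjusted p at 6 h was 0.107.

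Ephb3, a receptor for ephrin-B ligands with a known place in epithelial boundaries, went the other way. It had 8.24, 8.34 and 8.10 in PCB126 and 8.78, 8.80 and 8.95 in DMSO at 6 h. At 24 h the values were 7.94, 8.23 and 8.19 in PCB126 and 8.95, 9.01 and 8.83 in DMSO, and at 72 h 8.0, 7.77 and 7.94 in PCB126 and 9.09, 9.14 and 8.94 in DMSO. The groups did not overlap at any time, and the gap was widest at 72 h. Ephb3 fell by 0.62, 0.81 and 1.15 on the log2 scale (SE 0.119 each), with limma adjusted p of 0.0267, 5.42e-04 and 8.18e-06. All 18 probe sets were lower in PCB126 at each time, and at 72 h they lay between -1.62 and -0.84. The call at 6 h did not survive leaving out any 1 of the 6 arrays (limma adjusted p 0.0548 to 0.157), nor a fit of the compared groups alone (0.188).

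The promoters of these genes are shown because AhR binds DNA at response elements with the core GCGTG and the receptor's ligand is the treatment. Each window runs 250 bases before to 50 bases after the RefSeq start of the gene (GRCr8), 5′ to 3′ on the gene's strand, with cores in capitals on either strand. The window of Epha8 is chr5:154476917-154477216 (minus strand) and holds 5 cores, 223, 172 and 108 bases before the start and 12 and 27 bases after it. That of Ephb3 is chr11:93363726-93364025 (minus strand) and holds none.
Epha8: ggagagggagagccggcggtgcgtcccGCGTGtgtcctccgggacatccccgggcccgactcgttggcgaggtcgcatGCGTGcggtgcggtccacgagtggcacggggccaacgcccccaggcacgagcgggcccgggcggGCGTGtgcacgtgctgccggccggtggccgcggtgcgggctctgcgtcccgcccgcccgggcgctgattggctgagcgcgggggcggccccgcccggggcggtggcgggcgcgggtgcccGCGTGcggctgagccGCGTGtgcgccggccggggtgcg
Ephb3: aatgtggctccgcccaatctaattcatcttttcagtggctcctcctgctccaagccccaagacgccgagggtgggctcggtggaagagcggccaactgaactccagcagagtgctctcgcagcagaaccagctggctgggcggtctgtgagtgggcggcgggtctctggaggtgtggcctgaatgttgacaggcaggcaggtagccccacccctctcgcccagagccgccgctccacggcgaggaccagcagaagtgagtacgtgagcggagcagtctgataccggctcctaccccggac
The Epha8 window is 81% G and C and the Ephb3 window 63.7%, against a median of 51.7% over all 33469 RefSeq promoters of the table. At least 1 core stood in 29.7% of those promoters and at least 5 stood in 0.48%. A match describes these letters and does not show binding.

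Of the other Eph receptors, Epha4, which binds both classes of ephrin, fell at the later times. Its values were 5.90, 6.01 and 5.91 in PCB126 and 6.58, 6.57 and 6.51 in DMSO at 24 h, and 5.73, 5.36 and 5.67 in PCB126 and 6.01, 6.09 and 6.15 in DMSO at 72 h. The groups were apart at both times. Epha4 fell by 0.61 at 24 h and by 0.50 at 72 h (log2, SE 0.134; limma adjusted p 0.0127 and 0.0301), and at 6 h the difference was -0.52 (0.131). Without replicate 1 of PCB126 or replicate 1 of DMSO the 24 h call was lost (adjusted p 0.0518 and 0.0560), and the 72 h call was lost without any 1 of the 6 arrays except PCB126 replicate 1 (0.0506 to 0.119). Ephb2, another receptor of ephrin-B ligands, had 7.04, 7.04 and 6.98 in PCB126 and 7.60, 7.54 and 7.39 in DMSO at 24 h. These groups did not overlap either, but the difference of -0.49 was not called (limma adjusted p 0.0808). The other EphA genes and Ephb1 and Ephb6 were not called at any time, Epha2 among them, the EphA receptor best known from epithelia, with differences of -0.31, -0.24 and -0.16.

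**Figure D2:**
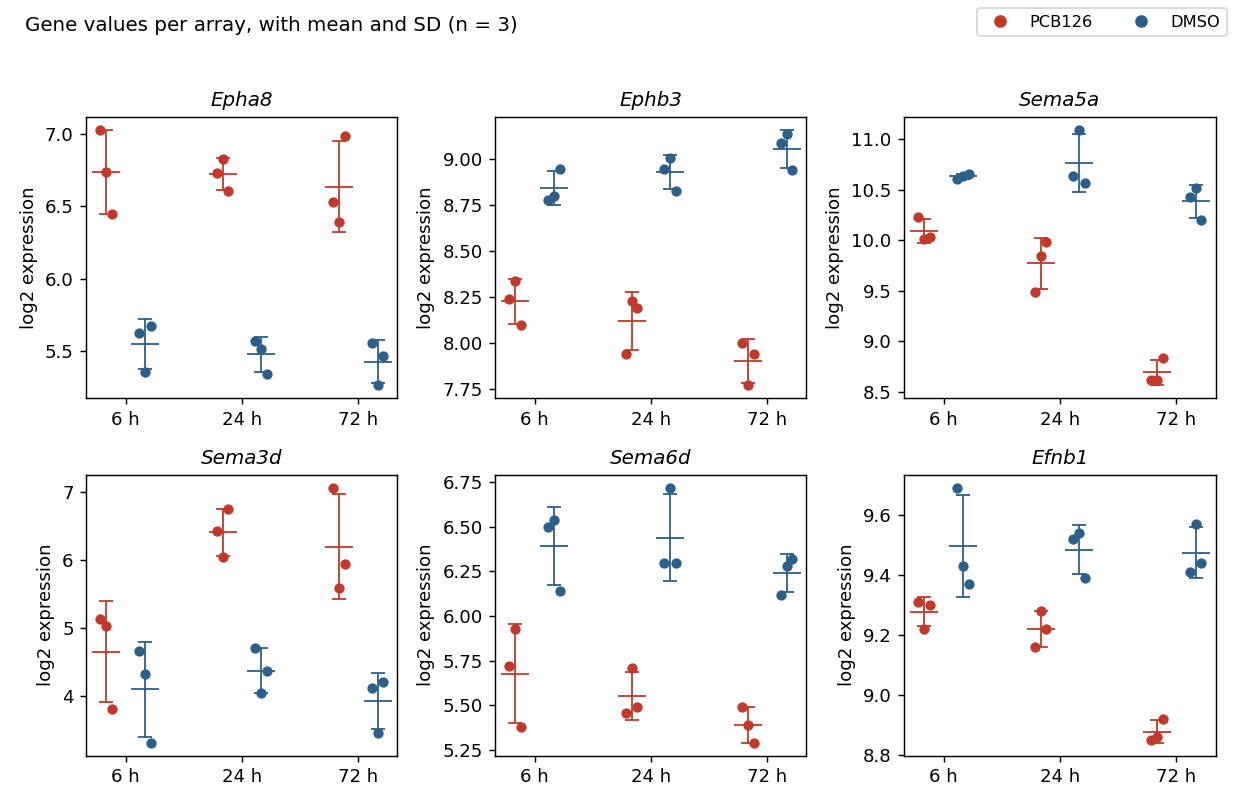
Log2 expression of 6 guidance genes on every array at 6, 24 and 72 h, PCB126 in red to the left of DMSO in blue. Dots are arrays and lines are the mean and SD of 3 arrays; each panel has its own axis, which does not start at 0. Epha8 and Sema3d stand higher in PCB126 at 24 and 72 h, and Ephb3, Sema5a, Sema6d and Efnb1 lower.

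Of the ephrins, a pair of B-class ligands was called at 72 h, in opposite directions. Efnb1, a transmembrane ligand of EphB receptors, had 8.85, 8.86 and 8.92 in PCB126 and 9.41, 9.57 and 9.44 in DMSO at 72 h. All PCB126 arrays were below all DMSO arrays, and within each group the arrays lay close together. Efnb1 fell by 0.60 (SE 0.106; limma adjusted p 0.00163), after differences of -0.22 at 6 h and -0.26 at 24 h that were not called (0.621 and 0.232). All 13 of its probe sets were lower at 72 h. With the compared groups fitted alone the adjusted p at 72 h was 0.0803.

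Efnb2, a second transmembrane ligand and a marker of arterial endothelium in the mouse, had 9.95, 9.74 and 9.87 in PCB126 and 9.41, 9.54 and 9.41 in DMSO at 72 h. The groups did not overlap. It rose by 0.40 (SE 0.116; limma adjusted p 0.0465), with all 10 probe sets higher, and differed by 0.07 and 0.25 at 6 and 24 h (0.932 and 0.322). The DMSO arrays had 9.96, 10.03 and 9.90 at 6 h, so that at 72 h the PCB126 arrays were nearer to the 6 h level than the DMSO arrays were. The call was lost without any 1 of 13 arrays, which include every array at 72 h except PCB126 replicate 2 (adjusted p up to 0.139). Efnb3 and the 5 ephrin-A genes, whose products are attached to the membrane by a lipid anchor, were not called, and the ephrin-A differences stayed between -0.23 and 0.24 over the 3 times.

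The semaphorins held both the largest rise and the largest fall among the guidance genes. Sema5a, a transmembrane semaphorin with thrombospondin repeats, had 10.23, 10.01 and 10.03 in PCB126 and 10.61, 10.63 and 10.65 in DMSO at 6 h. At 24 h it had 9.49, 9.84 and 9.98 in PCB126 and 10.63, 11.09 and 10.57 in DMSO, and at 72 h 8.62, 8.62 and 8.84 in PCB126 and 10.43, 10.52 and 10.20 in DMSO. The groups were apart at all 3 times and the PCB126 arrays were lowest at 72 h. At 6 h the difference of -0.53 was not called (limma adjusted p 0.231), at 24 h Sema5a fell by 0.99 (9.18e-04) and at 72 h by 1.69 (2.41e-06), with an SE of 0.155. This is 1.99-fold and 3.23-fold lower. All 34 probe sets were lower at each time, and at 72 h they lay between -2.28 and -0.48.

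Sema3d, a secreted class 3 semaphorin that acts through neuropilins, had 5.13, 5.03 and 3.81 in PCB126 at 6 h, against 4.66, 4.33 and 3.32 in DMSO. The groups overlapped then, and replicate 3 was low in both. At 24 h it had 6.43, 6.05 and 6.74 in PCB126 and 4.71, 4.05 and 4.38 in DMSO, and at 72 h 7.06, 5.59 and 5.94 in PCB126 and 4.12, 3.47 and 4.21 in DMSO. At both later times every PCB126 array was more than 1 log2 unit above every DMSO array. Sema3d rose by 2.02 at 24 h and by 2.27 at 72 h (SE 0.418; limma adjusted p 0.00844 and 0.00234), or 4.07- and 4.81-fold, while the 6 h difference of 0.55 was not called (0.798). All 20 probe sets were higher at 72 h, by 0.12 to 3.44, and 19 of 20 at 24 h.

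**Figure D3:**
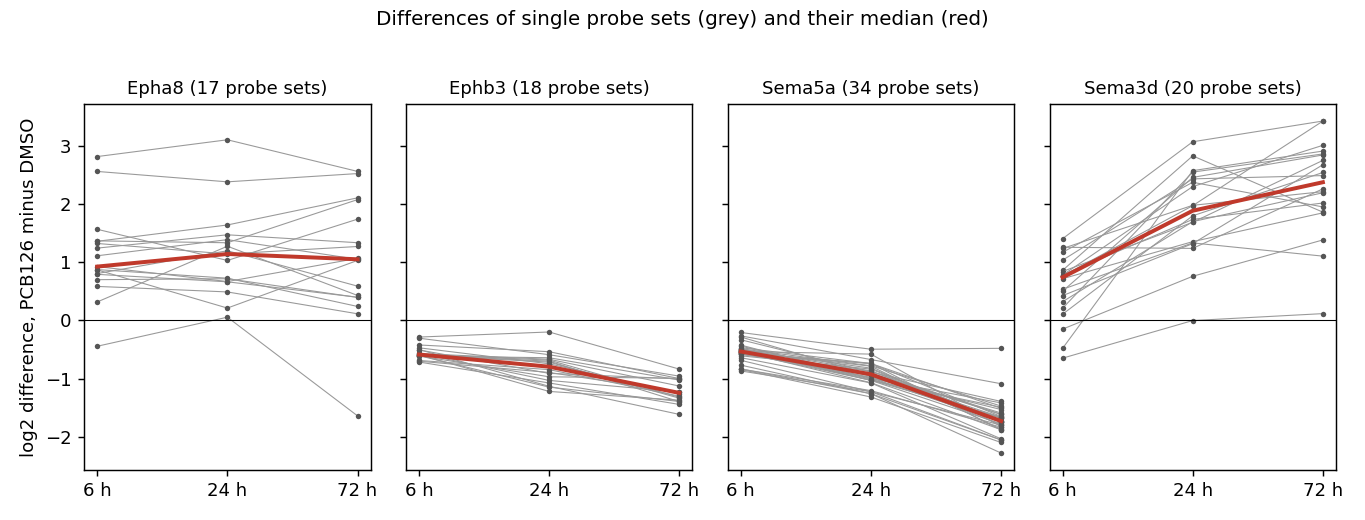
Log2 difference, PCB126 minus DMSO, of each single probe set (grey) of Epha8, Ephb3, Sema5a and Sema3d at 6, 24 and 72 h, with the median of the probe sets in red. The 18 Ephb3 and 34 Sema5a probe sets all lie below 0 at each time, and 1 of 17 Epha8 probe sets lies below 0 at 6 and 72 h.

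Sema6d, a transmembrane semaphorin that binds A-type plexins, had 5.72, 5.93 and 5.38 in PCB126 and 6.50, 6.54 and 6.14 in DMSO at 6 h. At 24 h it had 5.46, 5.71 and 5.49 in PCB126 and 6.30, 6.72 and 6.30 in DMSO, and at 72 h 5.49, 5.39 and 5.29 in PCB126 and 6.12, 6.28 and 6.32 in DMSO. The groups did not overlap at any time. The difference of -0.72 at 6 h was not called (limma adjusted p 0.0701), and Sema6d fell by 0.89 at 24 h and by 0.85 at 72 h (SE 0.161; 0.00309 and 0.00279), with 25, 25 and 27 of its 27 probe sets lower. Sema6c, of the same transmembrane class, had 6.30, 6.12 and 6.45 in PCB126 and 6.91, 6.68 and 6.64 in DMSO at 72 h. These groups were apart as well. It fell by 0.45 (SE 0.119; limma adjusted p 0.0270), with 20 of 24 probe sets lower, and the call was lost without replicate 1 or 2 of PCB126 or of DMSO (0.0516 to 0.132) and in probe sets above the median level alone (0.0675).

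The promoter windows of Sema3d and Sema6d are shown as those of a gene that rose and one that fell. The Sema3d window is chr4:23460922-23461221 (minus strand, GRCr8) and the Sema6d window chr3:132337106-132337405 (plus strand), again with GCGTG cores of either strand in capitals.
Sema3d: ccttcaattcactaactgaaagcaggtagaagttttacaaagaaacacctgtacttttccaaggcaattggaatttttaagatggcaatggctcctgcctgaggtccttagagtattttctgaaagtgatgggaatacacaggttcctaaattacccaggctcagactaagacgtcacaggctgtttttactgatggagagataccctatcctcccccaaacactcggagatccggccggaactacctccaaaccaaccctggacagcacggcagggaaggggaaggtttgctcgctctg
Sema6d: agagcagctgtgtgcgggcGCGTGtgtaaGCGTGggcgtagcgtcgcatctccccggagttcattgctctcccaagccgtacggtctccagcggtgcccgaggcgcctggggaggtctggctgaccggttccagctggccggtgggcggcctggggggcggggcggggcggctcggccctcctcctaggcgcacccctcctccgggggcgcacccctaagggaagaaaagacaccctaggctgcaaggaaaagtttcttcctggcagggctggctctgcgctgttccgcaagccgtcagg
The Sema3d window, with a G and C content of 47.3%, holds no core. The Sema6d window, at 69%, holds 2, at 231 and 221 bases before the start. A window was found for 10 of the 12 called genes, not for Sema5a and Epha4. Plxnd1 had 4 cores, Efnb1, Plxna2 and Plxnc1 had 1 each, and Efnb2 and Sema6c had none. Thus 6 of 10 called genes (60%) had a core, as did 15 of 40 windows of guidance genes not called (37.5%) and 29.7% of all promoters. The called genes' windows had a median G and C content of 66.3%, against 51.7% for all promoters, and its part in the share of windows with a core was not tested.

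The other 16 semaphorins were not called at any time. Among them were Sema3f, a secreted ligand of neuropilin 2, with differences of -0.11, -0.22 and -0.26, and Sema3e, the ligand of Plxnd1, with -0.14, -0.50 and -0.39. Sema7a, the lipid-anchored ligand of Plxnc1, differed by -0.27, -0.18 and 0.04. Sema6b had the highest value among uncalled members at 24 h, 0.51, with 5.63, 5.04 and 5.11 in PCB126 and 4.88, 4.85 and 4.52 in DMSO. These groups did not overlap, and the limma adjusted p was 0.114. Of the 22 Sema6b probe sets 13 were higher and 9 lower, and the median of their differences was 0.03.

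Of the semaphorin receptors, 3 of 7 plexins were called at some time and neither neuropilin was, in the model of all arrays. Plxnd1, the receptor of Sema3e, had 7.77, 7.96 and 7.73 in PCB126 and 8.19, 8.68 and 8.17 in DMSO at 24 h. At 72 h it had 7.42, 7.41 and 7.64 in PCB126 and 8.02, 8.16 and 8.0 in DMSO. The groups were apart at both times, and 44 of 48 probe sets were lower at 72 h. Plxnd1 fell by 0.53 and by 0.57 (SE 0.144; limma adjusted p 0.0451 and 0.0214). The 24 h call was lost without any 1 of 13 arrays (up to 0.206, without DMSO replicate 2), and the 72 h call without replicate 1 or 2 of PCB126 or of DMSO (0.0531 to 0.0863). Quantile normalisation of gene values and centring arrays on their gene median also lost the 24 h call (limma adjusted p 0.0640 and 0.0552).

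Plxna2, a receptor for class 6 semaphorins and a neuropilin partner, had 4.97, 5.47 and 5.33 in PCB126 and 5.79, 6.15 and 5.73 in DMSO at 24 h. The groups did not overlap, and 37 of 39 probe sets were lower. It fell by 0.64 at 24 h (SE 0.149; limma adjusted p 0.0191), while differences of -0.62 at 6 h and -0.42 at 72 h were not called (0.0913 and 0.117). The 24 h call was lost without PCB126 replicate 1 (0.103) or DMSO replicate 2 (0.0975). Plxnc1, the receptor of Sema7a, had 4.61, 4.00 and 4.60 in PCB126 and 3.62, 3.71 and 3.97 in DMSO at 72 h. PCB126 replicate 2 was only just above the highest DMSO array. Plxnc1 rose by 0.64 (SE 0.167; limma adjusted p 0.0255), but only 18 of its 37 probe sets had a mean above the median level, and over those the difference was 0.11 (adjusted p 0.785). The call was also lost without replicate 1 or 3 of PCB126 or replicate 1 or 2 of DMSO (0.0841 to 0.110).

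Nrp1, a co-receptor of secreted semaphorins and of VEGF, had 9.33, 9.38 and 9.58 in PCB126 and 9.90, 10 and 9.82 in DMSO at 24 h. The PCB126 arrays were all lower, and the difference of -0.48 narrowly missed the threshold (limma adjusted p 0.0516), beside -0.32 at 6 h and -0.18 at 72 h. Nrp1 at 24 h was called under at least 5 other settings (limma adjusted p 0.0117 to 0.0420), and Nrp2 at 72 h with the mean over probe sets (0.43, adjusted p 0.0376). Plxnb1, Plxnb2, Plxnb3 and Plxna3 were not called with PCB126.

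No Slit, Robo, netrin or Unc5 gene was called in PCB126 against DMSO at any time. Slit2 and Slit3, the secreted Robo ligands, differed by -0.08 and -0.10 at 6 h, by -0.42 and -0.05 at 24 h and by -0.36 and -0.19 at 72 h. The 4 Robo genes stayed between -0.10 and 0.20, and the 3 Unc5 genes, receptors for netrin, between -0.22 and 0.12. Unc5b, for which the values were 9.73, 10.15 and 9.96 in PCB126 and 10.02, 10.18 and 9.90 in DMSO at 72 h, overlapped between the groups at every time. Ntn1 (netrin 1) differed by 0.35, 0.32 and 0.08, on 6 probe sets. The SE of a guidance gene's difference had a median of 0.153. Among all guidance genes the smallest difference called with PCB126 was 0.40 in size (Efnb2 at 72 h), and differences as far from 0 as -0.72 (Sema6d at 6 h) were not called, so that smaller changes may have gone undetected.

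Whether the PCB126 effect differed between 6, 24 and 72 h was asked with a moderated F-test in limma. It called 0 of the 61 genes, against 0.565% of all genes. An unadjusted F-test p under 0.05 was found for 8 of the 61, and the share of all genes under that threshold was not counted. Sema5a came nearest, with an effect at 72 h that was lower by 1.16 on the log2 scale than at 6 h (limma adjusted p 0.0533). Next were Nrp2 (0.231), Sema3g (0.308) and Plxnc1 (0.360). The adjusted p was 0.415 for Ephb3 and 0.436 for Sema3d. The calls of Sema5a and Sema3d at 24 and 72 h but not at 6 h thus go with no called difference between times. Without replicate 1 of PCB126 or replicate 2 of DMSO at 24 h 1 guidance gene was called, Sema5a (limma adjusted p 0.0372 and 0.0276). Of all genes 82 and 96 were called then, against 96 with all arrays.

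The vehicle cultures also changed over time. Between DMSO at 72 h and DMSO at 6 h, 9 guidance genes were called, all lower at 72 h, which is 14.8% against 4.14% of all genes (3.27% lower and 0.865% higher). The groups of 23 genes did not overlap, 4 higher and 19 lower, against 26% of all genes (7.43% higher and 18.6% lower). The median difference of the 61 guidance genes was -0.15, beside -0.05 for all genes. This comparison uses DMSO arrays that also serve as controls for PCB126. The split depends on the scaling: centring each array on the median of its genes shifts all genes by 0.15, after which 7 were called, 2 higher (Robo2 and Sema3b, by 0.63 and 0.60) and 5 lower, with 5 shared, and quantile normalisation gave 1 higher and 5 lower. Among all genes centring gave 531 calls and quantile normalisation 488, against 703 in the main model. In PCB126 against DMSO these scalings shifted all genes by at most 0.04 and changed no sign among the called. Both gave 7 calls at 24 h, against 8, and Plxnd1 was the call lost. Of all genes, centring called 947 at 24 h and quantile normalisation 967, against 823.

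Slit3 and Sema6a fell most in the vehicle. Slit3 had 9.04, 9.09 and 8.80 in DMSO at 72 h, against 10.32, 10.52 and 10.32 in DMSO at 6 h. Sema6a, a transmembrane ligand of A-type plexins, had 7.09, 7.10 and 7.00 at 72 h, against 8.25, 8.06 and 7.93 at 6 h. All arrays at 72 h were below all arrays at 6 h for both genes, and 41 of 42 Slit3 and all 23 Sema6a probe sets were lower. Slit3 fell by 1.41 (SE 0.166; limma adjusted p 1.89e-04), or 2.66-fold, and Sema6a by 1.01 (0.00414), or 2.02-fold. PCB126 cultures held similar values at 72 h: Slit3 had 8.53, 8.95 and 8.89 and Sema6a 7.05, 6.81 and 7.20, overlapping the DMSO arrays of that time.

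The other genes lower in DMSO at 72 h were Plxna2 (-0.75, limma adjusted p 0.0114), Slit2 (-0.76, 0.0242), Sema3e (-0.74, 0.0318), Plxnb1 (-0.58, 0.00942), Epha4 (-0.56, 0.0278), Efnb2 (-0.51, 0.0228) and Sema4b (-0.49, 0.0490). Plxnb1 is the receptor of Sema4d. Epha4 and Plxna2 were thus lower at 72 h in the vehicle and lower in PCB126 than in DMSO at some time, whereas Efnb2 was lower at 72 h in the vehicle and higher in PCB126 at 72 h. The count was 4 without replicate 1 of DMSO at 6 h or at 72 h, 3 without DMSO 6 h replicate 2 and 2 without DMSO 72 h replicate 3. Without these arrays, in that order, 293, 245, 161 and 205 of all genes were called, against 703 with all arrays. Each of these 7 genes was lost without at least 1 of those arrays (adjusted p up to 0.212). The mesenchymal marker list had a mean of 8.99 in DMSO at 72 h and 9.46 in DMSO at 6 h. Of its 7 members 2 were called lower, against 3.27% of all genes, and the list's part in these changes was not tested.

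**Figure D4:**
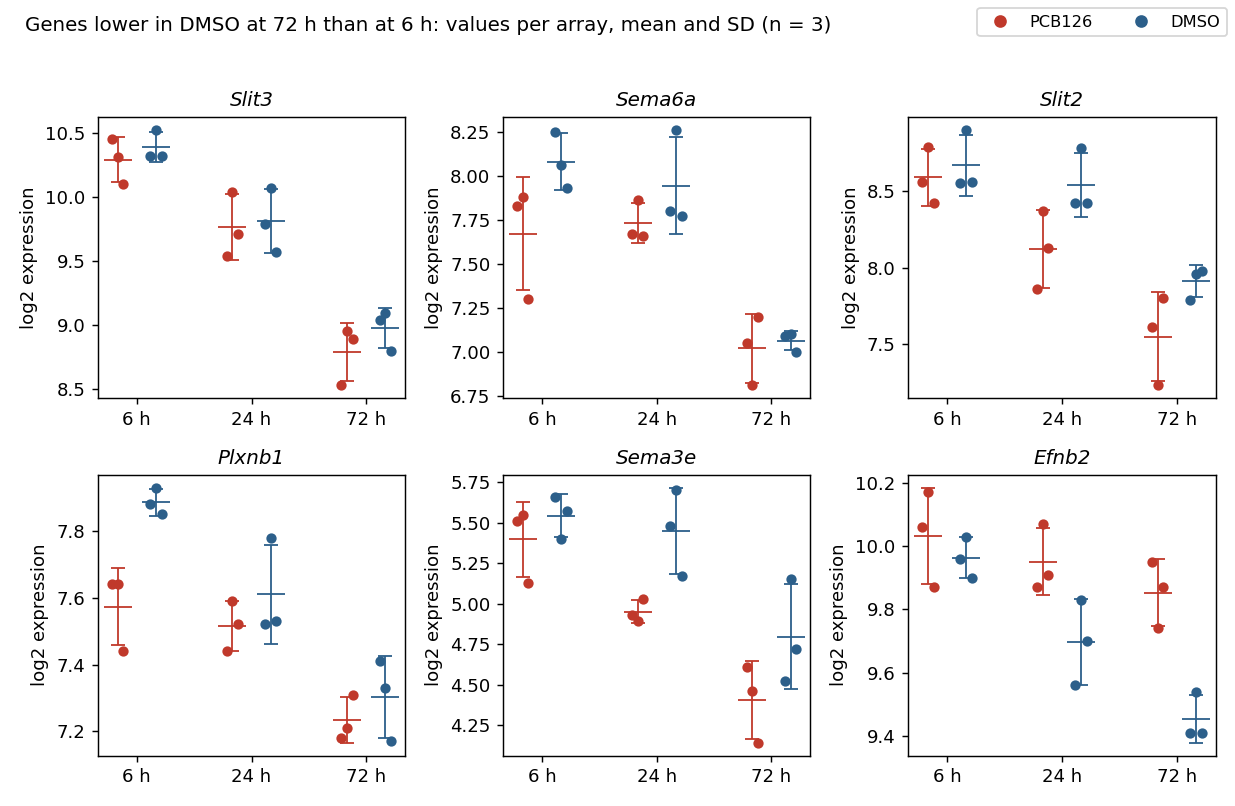
Log2 expression of 6 guidance genes called lower in DMSO at 72 h than at 6 h, on every array, PCB126 in red to the left of DMSO in blue. Dots are arrays and lines are the mean and SD of 3 arrays; each panel has its own axis, which does not start at 0. Slit3 and Sema6a are lowest at 72 h under both treatments, and Efnb2 at 72 h is higher in PCB126 than in DMSO.

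Downstream of the receptors, a list of guidance signalling effectors (small GTPase regulators, kinases and actin-binding proteins; 74 of 76 measured) had 1 higher and 0 lower at 6 h, 2 higher and 4 lower at 24 h and 4 higher and 6 lower at 72 h. Over all genes 0.494%, 4.84% and 7.44% were called. The median difference of the list was -0.08, -0.11 and -0.07, beside -0.01, -0.02 and 0.00 for all genes. Ablim3, an actin-binding LIM protein, rose by 0.72, 1.45 and 1.37 (limma adjusted p 0.00851, 2.20e-06 and 1.30e-06), and its relative Ablim1 fell by 1.16 at 24 h and by 1.49 at 72 h (4.60e-04 and 1.97e-05). Srgap3, a GTPase-activating protein that binds Robo receptors, fell by 1.11 and 1.23 (0.00254 and 6.21e-04). Pak1, a kinase activated by Rac and Cdc42, fell by 0.88 at 24 h (0.00311), and Chn2, a Rac GTPase-activating protein, by 1.08 at 72 h (6.75e-06). In DMSO at 72 h against 6 h, 1 effector was higher and 7 were lower, where 4.14% of all genes were called.

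Of 31 measured genes on a list of other guidance ligands and receptors (36 listed), 0 were higher and 1 lower at 6 h, 1 higher and 3 lower at 24 h, and 0 higher and 7 lower at 72 h. Of all genes 0.494%, 4.84% and 7.44% were called at these times, and 0.241%, 3.14% and 4.14% were called lower. The list's median difference was -0.10, -0.11 and 0.04, beside -0.01, -0.02 and 0.00 for all genes. Met, the receptor of hepatocyte growth factor and a partner of B-type plexins, fell by 0.76, 1.08 and 1.21 (limma adjusted p 0.0406, 4.74e-04 and 8.77e-05). Flrt2, a ligand of Unc5 receptors, fell by 0.68 at 24 h and 0.95 at 72 h (0.00869 and 3.42e-04), and Wnt5a, a secreted Wnt ligand, by 0.78 and 0.74 (0.00134 and 0.00139). Ncam1, a cell adhesion molecule, fell by 0.70 at 72 h (0.00710). Flrt1, of the same family as Flrt2, rose by 1.01 at 24 h (0.0320). In DMSO at 72 h against 6 h, 0 of these genes were higher and 3 lower, where 4.14% of all genes were called.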

How the data were processed

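Total RNA of 18 cultures of 1 cell line was measured on Affymetrix rat exon arrays, and each array was placed in its group by the treatment and time in the labels. The authors deposited log2 expression values. The submitters' processing notes name RMA and Affymetrix Power Tools 1.12.0, and the genome build and the RMA settings are not given in the sources used here. RMA corrects background and normalises between arrays, which compresses differences of dim probe sets. All 18 value columns were used. Of 1044112 probe sets, 223110 carried 1 symbol, 3523 several and 817479 none, and the last 2 kinds were left out. A gene's value was the median over its probe sets, and all 61 guidance symbols are current RefSeq symbols. The platform symbols Plxna4a and Ntn2l lie outside the rule for choosing genes.

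Group means of all arrays were fitted jointly with limma 3.58.1 in R 4.3.3 (with data.table, version 1.17.8), with 12 residual and 3.89 prior degrees of freedom and two-sided moderated tests. The Benjamini-Hochberg adjustment covered the 16988 genes of a comparison. The tests were checked on simulated data. The guidance genes, the lists and the settings were chosen with earlier results of these data known. Text names every called guidance gene, members standing out by level or family, and up to 4 called genes per list and time. The labels call the 3 samples per group independent repeats without saying how they were separated, so the p-values speak only of variation between those samples, and the number of arrays limits the precision. No 2 arrays were identical (highest correlation 0.990). Promoters are those of RefSeq GRCr8, matched by symbol for 49 of 61 genes (50 windows, since Robo1 has 2 starts) and read with Python 3.11.15 and pandas 2.3.3; figures were drawn with matplotlib 3.10.9. Alternatives were a block for the replicate number, averaging probe sets by the mean, restriction to bright genes, bright probe sets or genes with 4 or more probe sets, other scalings, an intensity trend, array weights, the compared groups alone and leaving out arrays.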

Additional observations from a re-analysis of the deposited data

Results flagged for a closer look

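For a pair of genes the PCB126 arrays stood on opposite sides of the DMSO arrays at different times. The share of all genes that did so was not counted. At a single time 7.05% to 9.52% of all genes were higher without overlap and 9.87% to 12.7% lower. Nrp2, a co-receptor of secreted semaphorins, had 6.73, 6.83 and 6.35 in PCB126 and 7.14, 7.18 and 6.91 in DMSO at 6 h, a difference of -0.44. At 72 h it had 7.29, 7.17 and 7.17 in PCB126 and 6.82, 6.77 and 7.05 in DMSO, a difference of 0.33. Neither difference was called (limma adjusted p 0.329 and 0.223), although 19 of 20 probe sets were lower at 6 h and 19 of 20 higher at 72 h. With the mean over probe sets the 72 h difference was 0.43 and was called (adjusted p 0.0376). A limma F-test of whether the effect differed between the 3 times gave an adjusted p of 0.231.

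Sema3g, a secreted semaphorin, had 5.59, 5.39 and 5.63 in PCB126 and 5.65, 5.82 and 5.91 in DMSO at 6 h, a difference of -0.26. At 24 h it had 5.55, 5.45 and 5.70 in PCB126 and 5.33, 5.25 and 5.36 in DMSO, a difference of 0.26. The groups did not overlap at either time, but neither difference was called (limma adjusted p 0.652 and 0.404). At 6 h 14 of 19 probe sets were lower. At 24 h 9 were higher and 10 lower, and the median of their differences was -0.03. At 72 h the difference was -0.39, with overlapping groups, and was not called (limma adjusted p 0.111). The limma F-test adjusted p was 0.308.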

How the results depend on the processing

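Over 29 other settings, 10 of the 21 calls of single genes in PCB126 against DMSO held in every one: Epha8, Ephb3, Sema3d, Sema5a and Sema6d, each at 24 and 72 h. In the DMSO time comparison Slit3 and Sema6a held in all, of 9 calls. Of 1302 values of single genes, 1162 kept direction and side of the threshold, 125 lost the call and 14 gained one. These values follow only genes called in the main model, so gains by other genes, such as Nrp1 and Nrp2, are not among them. The single reversal was Plxnc1 at 6 h, not called, at 0.10 in bright probe sets against -0.15. With the mean over probe sets, 6 guidance genes were called at 6 h (4 more, all lower: Epha4, Plxna2, Sema5a and Sema6d), 12 at 24 h (2 higher, 10 lower), 16 in the DMSO time comparison and 2 by the F-test (Ephb3 and Sema5a). Over all genes this setting called 178 at 6 h, 1256 at 24 h and 1346 in the DMSO time comparison, against 84, 823 and 703. The F-test called 1 guidance gene, Sema5a, with bright probe sets, bright genes, at least 4 probe sets, centring on gene medians, an intensity trend or array weights. In these settings it called 106 to 306 of all genes, against 96. Array weights gave 4 calls at 6 h (169 over all genes) and 14 in the DMSO time comparison (1304 over all genes). Nrp1 at 24 h gained a call under at least 5 settings, among them bright genes and bright probe sets, and Nrp2 at 72 h with the mean over probe sets. With the compared groups alone, which leaves fewer arrays to estimate the spread, the counts were 0 at 6 h (11 over all genes) and 5 at 72 h (416 over all genes, against 1264). They were 2 in the DMSO time comparison (73 over all genes, against 703) and 14 for the other guidance lists over the 3 times, against 29. Leaving out 1 array at a time gave 1 to 2 calls at 6 h, 5 to 11 at 24 h, 6 to 11 at 72 h, 2 to 12 in the DMSO time comparison, 0 to 1 by the F-test and 24 to 27 for the lists. Among all genes these fits called 32 to 90 at 6 h, 449 to 950 at 24 h and 885 to 1272 at 72 h. They called 161 to 825 in the DMSO time comparison and 37 to 104 by the F-test. Arrays with equal replicate numbers were not treated as pairs in the main model. Between treatments at a time their deviations had correlations of 0.00405 to 0.170, all positive. Of 18 arrays 12 correlated best with an array of their own number, so the arrays may be paired in part. The replicate block gave 3, 9 and 11 calls at 6, 24 and 72 h (77, 878 and 1316 over all genes). It gave 12 in the DMSO time comparison (790 over all genes), 0 by the F-test and 29 for the lists. The causes were not tested. Signal near background limits what can be read of dim genes such as Plxnc1.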
